A study of Homo sapiens with 18 samples.

Results

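Aminoacyl-tRNA synthetases, the enzymes that load each transfer RNA (tRNA) with its amino acid, were followed in a leukaemia cell line after treatment with either of 2 MDM2 inhibitors. The set was a list of 35 synthetase genes, defined by gene family and not by measured values. It holds 19 genes of cytosolic enzymes and 16 genes of mitochondrial enzymes. A probe with exactly 1 gene symbol was present for 31 of the 35, which are 16 cytosolic and 15 mitochondrial members, out of 21448 probes in all. Each of these 31 genes had 1 probe. QARS1, MARS1, VARS1 and TARS2 are not analysed here.

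Each synthetase recognises a single amino acid and the tRNAs that belong to it, and joins them in a reaction driven by ATP. The enzymes fall into 2 structural families, class I and class II, which differ in the fold of the catalytic domain. Most mammalian synthetases are made from separate nuclear genes for the cytosol and for the mitochondrion, while GARS1 (glycine) and KARS1 (lysine) each serve both compartments. Several cytosolic enzymes sit together in the multisynthetase complex. Many cytosolic synthetase genes are known targets of ATF4, the transcription factor of the integrated stress response, which cells switch on when amino acids run short.

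OCI-AML3 cells, a line grown from a human acute myeloid leukaemia, are listed as wildtype in genotype. RG7112 and HDM201 are small molecules that keep the ubiquitin ligase MDM2 from binding p53, and the series is titled after MDM2, p53 and the immune response to leukaemia that follows a transplant. Total RNA was measured in 18 arrays, from 6 samples treated with HDM201 at 500 nM, 6 treated with RG7112 at 2 µM and 6 treated with the solvent DMSO, each for 24 h. The labels call the 6 samples of a group biological replicates without saying how the cultures were kept apart, and p-values here measure only how far such samples of a single line spread.

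All values are log2 signals, and a difference is the treated mean minus the DMSO mean on that scale, with the standard error (SE) of the limma model and n = 6 arrays per group. A gene is said to have risen, fallen or passed where its Benjamini-Hochberg adjusted p from limma, over all 21448 probes, lay under 0.05. Array medians lay between 6.44 and 6.57 and the lowest signals between 2.66 and 2.85. Precision is set by the number of arrays. The cell line's label was set against markers in the DMSO arrays. The myeloid genes SPI1, CEBPA and LYZ averaged 10.29, 9.90 and 12.70, while the T cell genes CD3D and CD2 averaged 3.82 and 3.68 and the B cell gene MS4A1 averaged 3.69. The granule gene MPO averaged 5.41, so not every myeloid marker was bright. Nor was every marker of other cells dim. The B cell genes CD79A and CD79B averaged 6.8 and 6.4 and the T cell gene CD247 averaged 5.3. COL1A2 and KRT8, markers of fibroblasts and epithelium, averaged 8.2 and 7.7. The p53 targets CDKN1A and MDM2 were higher by 4.10 and 2.58 with HDM201 and by 3.97 and 2.57 with RG7112. Arrays of replicates 1 to 3 stood apart from those of replicates 4 to 6 in earlier results of these data, and RG7112 replicate 3 had the narrowest spread of signals, with an interquartile range of 3.45 against at most 3.91 on other arrays. Results within each replicate set and without that array are given beside the results they touch.

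The promoters are shown because many cytosolic synthetase genes carry the C/EBP-ATF response element, the DNA motif at which ATF4 binds with a C/EBP partner. The core searched was TGATGNAA, on both strands, in RefSeq windows (GRCh38.p14) that run from 250 bases before to 50 bases after the start of a gene. Of the 31 measured members, 27 had a window, and LARS1, YARS1, AARS2 and VARS2 had none in the table used. The core was present in 6 of 14 cytosolic genes (AARS1, CARS1, GARS1, IARS1, NARS1 and TARS1) and in 1 of 13 mitochondrial genes (YARS2). Counted by window, since some genes have several, it was in 31.6% of cytosolic and 5.88% of mitochondrial windows, against 3.62% of all 35116 windows. The windows printed are those of 4 genes with the core that fell with at least HDM201, and that of SARS1, the only synthetase that rose. CARS1, TARS1 and SARS1 had 2 windows each, and the window with the most matches was chosen, or the first by position where these were equal. The other window of CARS1 and of TARS1 held no match. They lie at chr16:70289457-70289756 (AARS1, minus strand), chr11:3057374-3057673 (CARS1, minus strand), chr9:92293648-92293947 (IARS1, minus strand), chr5:33440715-33441014 (TARS1, plus strand) and chr1:109213643-109213942 (SARS1, plus strand). Each reads 5′ to 3′ along its gene, and capitals mark the core, which appears here from its opposite strand.
AARS1: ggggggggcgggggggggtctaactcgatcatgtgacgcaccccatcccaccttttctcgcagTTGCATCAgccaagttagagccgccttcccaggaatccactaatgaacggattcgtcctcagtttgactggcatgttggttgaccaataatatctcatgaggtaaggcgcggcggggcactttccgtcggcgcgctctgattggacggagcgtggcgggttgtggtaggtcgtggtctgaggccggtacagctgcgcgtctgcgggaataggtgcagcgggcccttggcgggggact
CARS1: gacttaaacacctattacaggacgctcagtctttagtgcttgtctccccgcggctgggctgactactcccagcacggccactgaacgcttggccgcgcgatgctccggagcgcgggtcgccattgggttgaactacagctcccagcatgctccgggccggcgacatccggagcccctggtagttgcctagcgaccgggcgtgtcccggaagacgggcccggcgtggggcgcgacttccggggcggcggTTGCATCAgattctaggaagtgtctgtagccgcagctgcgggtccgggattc
IARS1: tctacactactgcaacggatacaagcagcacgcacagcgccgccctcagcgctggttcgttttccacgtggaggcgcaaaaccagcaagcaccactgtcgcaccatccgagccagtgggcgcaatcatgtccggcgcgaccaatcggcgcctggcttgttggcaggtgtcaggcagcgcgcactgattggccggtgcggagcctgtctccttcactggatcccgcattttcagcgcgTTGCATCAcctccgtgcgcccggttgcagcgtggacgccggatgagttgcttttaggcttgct
TARS1: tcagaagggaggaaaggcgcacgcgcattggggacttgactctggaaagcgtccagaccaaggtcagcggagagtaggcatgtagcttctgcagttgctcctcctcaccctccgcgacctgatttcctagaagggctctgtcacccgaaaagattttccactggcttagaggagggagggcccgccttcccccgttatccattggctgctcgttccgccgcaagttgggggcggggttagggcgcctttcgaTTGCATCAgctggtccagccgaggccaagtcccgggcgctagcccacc
SARS1: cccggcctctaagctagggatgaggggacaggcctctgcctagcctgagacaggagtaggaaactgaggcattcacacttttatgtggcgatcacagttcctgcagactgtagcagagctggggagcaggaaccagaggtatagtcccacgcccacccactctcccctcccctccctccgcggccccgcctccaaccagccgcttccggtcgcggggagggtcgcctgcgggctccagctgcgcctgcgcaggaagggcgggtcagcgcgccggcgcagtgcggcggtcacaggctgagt

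In the printed windows the core of AARS1 began at position -187 from the start, that of CARS1 at -2, that of IARS1 at -13 and that of TARS1 at 3, counting the start as 1. The SARS1 window printed holds no match to these letters. A match is a description of the sequence and not evidence of binding.

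With HDM201, 7 of the 16 measured cytosolic synthetases fell, 1 rose and 8 did not pass. Those that fell were AARS1, EPRS1, YARS1, FARSB, TARS1, IARS1 and CARS1, and the riser was SARS1, the enzyme for serine. Over all probes 18.8% passed in this comparison, 9.64% lower and 9.16% higher. Brighter probes passed more often: among the 4910 probes at least as bright as the dimmest cytosolic member, 17.1% were lower and 15.6% higher. The median difference of the cytosolic members was -0.22, against 0.02 over all probes, and 15 of the 16 lay below 0. By structural family, 4 of 7 class I and 3 of 9 class II enzymes fell. EPRS1, which joins a class I and a class II enzyme, was counted in class I. In bulk RNA a lower signal in every cell and in a share of the cells cannot be told apart. Of the 15 mitochondrial synthetases 1 fell, NARS2, and 14 did not pass, with a median difference of -0.06. Among the 11588 probes at least as bright as the dimmest mitochondrial member, 15.4% were lower and 14.4% higher.

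With RG7112, 6 of the 16 cytosolic synthetases fell, 1 rose and 9 did not pass. The 6 that fell and the riser also passed in the same direction with HDM201, and TARS1 passed with HDM201 alone. By structural family, with EPRS1 again counted in class I, 4 of 7 class I and 2 of 9 class II enzymes fell. Both comparisons use the same DMSO arrays. Over all probes 17.5% passed, 9.61% lower and 7.9% higher, and among probes as bright as the cytosolic members 18% were lower and 12.1% higher. The median difference was -0.25 for the cytosolic members and 0.03 over all probes. In the mitochondrial group NARS2 and AARS2 fell and 13 did not pass, with a median of -0.10. Among probes as bright as the mitochondrial members 15.7% were lower and 11.8% higher.

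**Figure D1:**
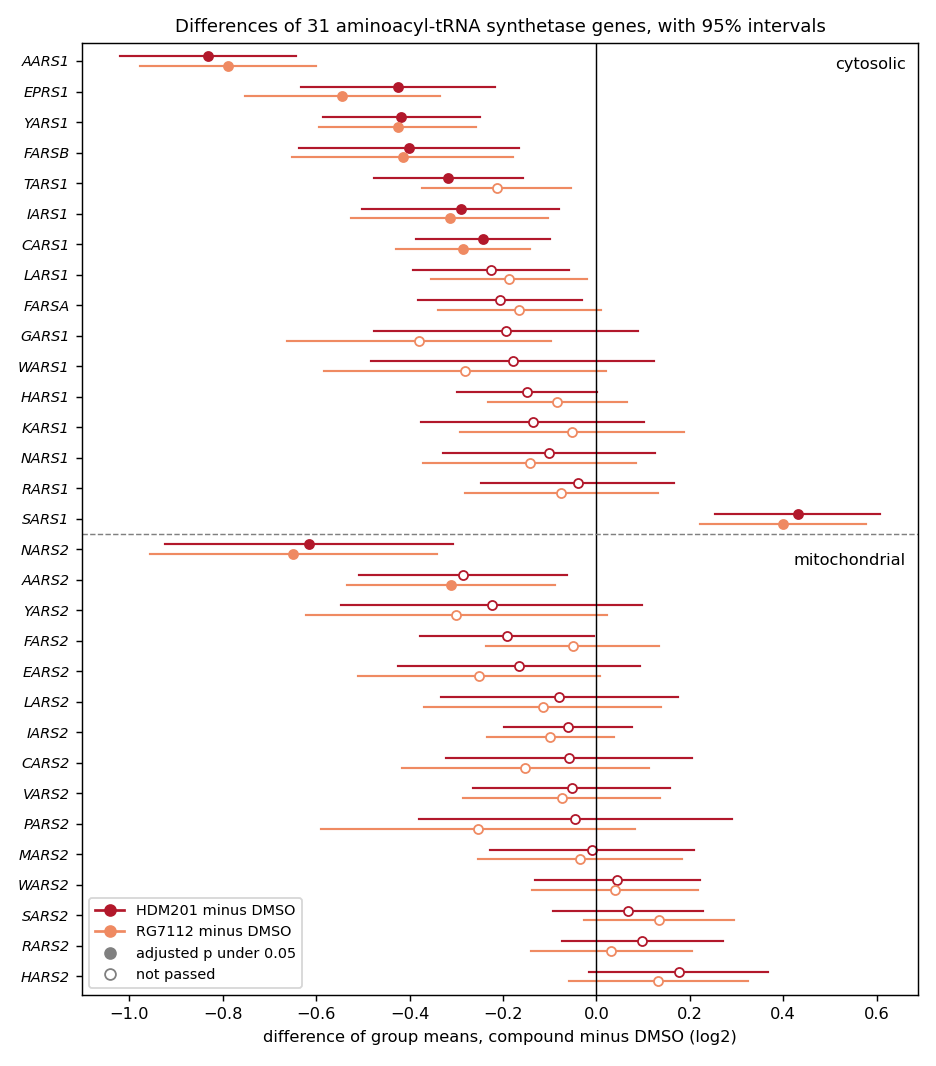
Differences of the 31 measured synthetase genes from DMSO on the log2 scale, HDM201 (dark red) above RG7112 (orange) for each gene, with 95% intervals of the limma model from 6 arrays per group; filled points passed. AARS1 lies farthest below 0 at -0.83 with HDM201 and -0.79 with RG7112, SARS1 is the only filled point above 0, and most mitochondrial genes below the dashed line have open points near 0.

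AARS1, alanyl-tRNA synthetase, had the largest difference of any member with either compound. Its log2 signal was 9.78 at the lowest, 9.90 at the median and 10.12 at the highest in HDM201 arrays. In RG7112 arrays the lowest, median and highest were 9.76, 9.99 and 10.17, against 10.64, 10.68 and 11.00 in DMSO arrays. Every treated array lay below every DMSO array, with a gap of more than the range of the treated values. The signal fell by 0.83 ± 0.09 (SE, n = 6 per group) with HDM201, which is 1.78-fold lower, with a limma adjusted p of 9.32e-07. It fell by 0.79 ± 0.09 with RG7112, which is 1.73-fold lower, with a limma adjusted p of 3.27e-06.

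EPRS1, which carries the enzymes for glutamate and proline on a single chain, is part of the multisynthetase complex. It ranged from 10.01 to 10.32 in HDM201 arrays (median 10.11), from 9.77 to 10.36 in RG7112 arrays (median 9.97) and from 10.37 to 10.67 in DMSO arrays (median 10.61). The groups did not overlap, although the highest RG7112 array lay just below the lowest DMSO array. The difference was -0.42 ± 0.10 with HDM201 (limma adjusted p = 0.00392) and -0.54 ± 0.10 with RG7112 (limma adjusted p = 0.000535). Of the 5 complex enzymes measured, EPRS1 and IARS1 fell with both compounds, and LARS1 (leucine), RARS1 (arginine) and KARS1 did not pass. The complex enzymes had a median difference of -0.22 with HDM201 and -0.19 with RG7112, and the 11 cytosolic members outside the complex had medians of -0.21 and -0.28. AIMP1, a scaffold of the complex, differed by -0.02 with HDM201 and -0.06 with RG7112 and did not pass.

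YARS1, tyrosyl-tRNA synthetase, lay between 9.76 and 9.98 in HDM201 arrays (median 9.91). It lay between 9.74 and 10.08 in RG7112 arrays (median 9.87) and between 10.17 and 10.49 in DMSO arrays (median 10.27). No treated array reached a DMSO array. The difference was -0.42 ± 0.08 with HDM201 (limma adjusted p = 0.000659) and -0.42 ± 0.08 with RG7112 (limma adjusted p = 0.000739).

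FARSB encodes the beta subunit of cytosolic phenylalanyl-tRNA synthetase and FARSA its alpha subunit. FARSB had 10.14, 10.51 and 10.81 as lowest, median and highest in HDM201 arrays and 10.17, 10.52 and 10.72 in RG7112 arrays, against 10.67, 10.95 and 11.07 in DMSO arrays. The treated groups overlapped the lowest DMSO array. FARSB differed by -0.40 ± 0.11 with HDM201 (limma adjusted p = 0.0147) and by -0.42 ± 0.11 with RG7112 (limma adjusted p = 0.0135). Its partner FARSA had differences of -0.21 with HDM201 (limma adjusted p = 0.0973) and -0.17 with RG7112 (limma adjusted p = 0.191), which did not pass. Whether the subunits differed from each other was not tested.

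CARS1, cysteinyl-tRNA synthetase, lay within 8.45 to 8.54 in HDM201 arrays (median 8.50), within 8.37 to 8.55 in RG7112 arrays (median 8.44) and within 8.49 to 8.84 in DMSO arrays (median 8.76). DMSO replicate 4, at 8.49, sat inside the treated range, and the other DMSO arrays lay above it. The differences were -0.24 ± 0.07 with HDM201 (limma adjusted p = 0.0153) and -0.29 ± 0.07 with RG7112 (limma adjusted p = 0.00572).

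IARS1, isoleucyl-tRNA synthetase, had lowest, median and highest signals of 9.45, 9.60 and 9.98 in HDM201 arrays and 9.47, 9.60 and 9.78 in RG7112 arrays, against 9.62, 9.93 and 10.14 in DMSO arrays. Its groups overlapped. It fell, with differences of -0.29 ± 0.10 with HDM201 and -0.31 ± 0.10 with RG7112 and limma adjusted p of 0.0495 and 0.0363. These calls lay close to the threshold. When each of the 18 arrays was left out in turn, the HDM201 call held in 3 of 18 fits (adjusted p from 0.0105 to 0.121). The RG7112 call held in 12 of 18 (adjusted p from 0.0121 to 0.0906) and was lost without DMSO replicate 2, 3 or 6 or RG7112 replicate 1, 5 or 6. Leaving out replicate 1 of DMSO, replicate 3 of RG7112 or replicate 4 of HDM201 kept the HDM201 call. The difference stayed below 0 in all of these fits.

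TARS1, threonyl-tRNA synthetase, had lowest, median and highest signals of 9.77, 9.92 and 10.15 in HDM201 arrays and 9.96, 10.02 and 10.20 in RG7112 arrays, against 10.20, 10.27 and 10.30 in DMSO arrays. The HDM201 arrays all lay below the DMSO arrays, and the highest RG7112 array reached the lowest DMSO array. TARS1 fell by 0.32 ± 0.08 with HDM201 (limma adjusted p = 0.00471). With RG7112 the difference was -0.21 ± 0.08 (limma adjusted p = 0.0595), which did not pass with all arrays but passed without RG7112 replicate 2 (adjusted p = 0.035) or HDM201 replicate 4 (adjusted p = 0.0474). For HDM201 minus RG7112 TARS1 had -0.10 (95% interval -0.26 to 0.06), which did not pass.

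SARS1, seryl-tRNA synthetase, was the only member that rose, and it did so with both compounds. It had lowest, median and highest signals of 9.44, 9.61 and 9.70 in HDM201 arrays and 9.37, 9.55 and 9.79 in RG7112 arrays, against 9.02, 9.17 and 9.27 in DMSO arrays. Each treated array exceeded each DMSO array, which held for 6.63% of all probes with HDM201 and 4.29% with RG7112. In both treated groups replicates 1 to 3 were higher than replicates 4 to 6. The rise was 0.43 ± 0.09 with HDM201, 1.35-fold, with a limma adjusted p of 0.000815, and 0.40 ± 0.09 with RG7112, 1.32-fold, with a limma adjusted p of 0.00205. Within replicates 1 to 3 the difference was 0.49 with HDM201 and 0.52 with RG7112. Within replicates 4 to 6 it was 0.37 with HDM201 (limma adjusted p = 0.0169) and 0.28 with RG7112 (limma adjusted p = 0.0863), so the RG7112 call was lost there.

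**Figure D2:**
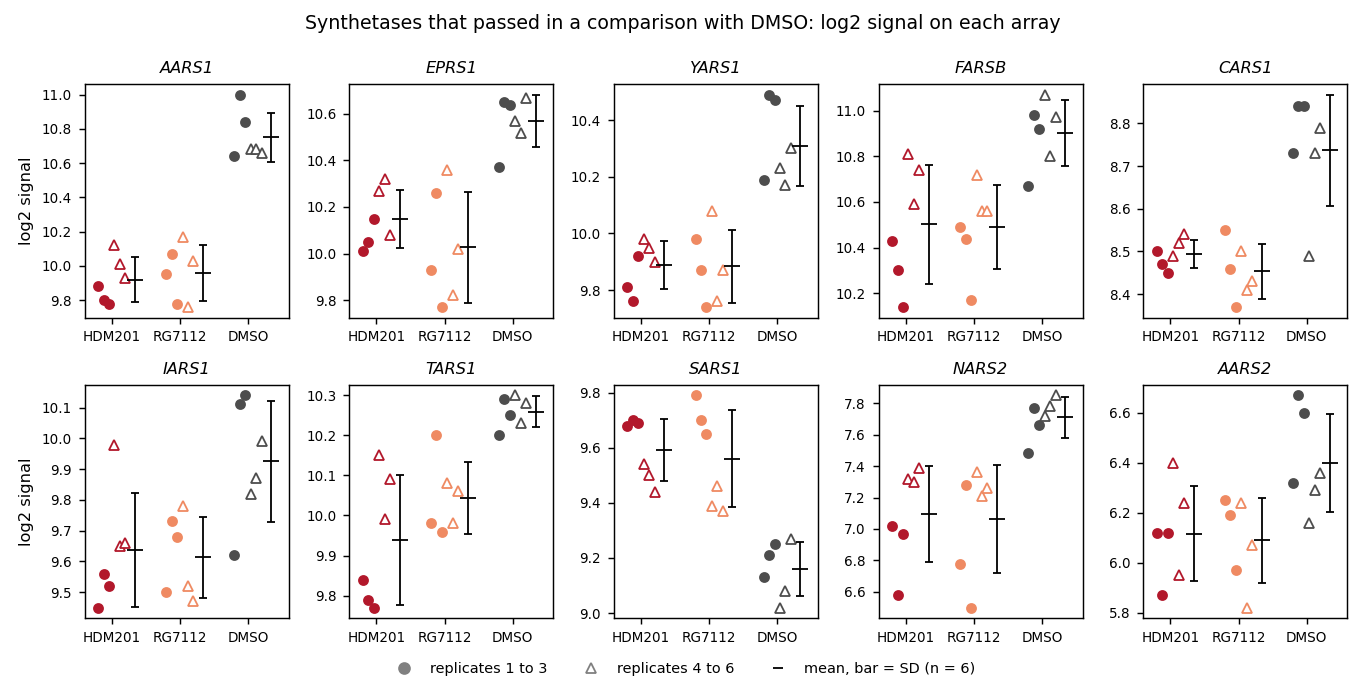
Log2 signal on each array for the 10 synthetases that passed against DMSO with either compound, in the order HDM201, RG7112, DMSO; filled circles are replicates 1 to 3, open triangles replicates 4 to 6, and the bar is the mean with the SD (n = 6). AARS1, EPRS1, YARS1 and NARS2 have every treated array below every DMSO array, and SARS1 has every treated array above.

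The other cytosolic members were WARS1 (tryptophan), LARS1, RARS1, FARSA, GARS1, HARS1 (histidine), KARS1 and NARS1 (asparagine). With HDM201 these 8 had differences from -0.22 to -0.04, with SE between 0.07 and 0.14 and limma adjusted p from 0.0558 to 0.846. With RG7112 the same 8 and TARS1 had differences from -0.38 to -0.05 and limma adjusted p from 0.0581 to 0.804. LARS1 came closest to passing with HDM201, at -0.22 ± 0.08, and passed without RG7112 replicate 3 (adjusted p = 0.0397) or HDM201 replicate 4 (adjusted p = 0.0157). With RG7112 no LARS1 array overlapped a DMSO array, at 9.98 to 10.21 in RG7112 arrays against 10.22 to 10.41 in DMSO arrays, while the difference of -0.19 did not pass (limma adjusted p = 0.117). Arrays without overlap occurred for 4 of 16 cytosolic members in the lower direction with each compound, against 6.92% of all probes with HDM201 and 5.61% with RG7112.

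RG7112 replicate 3 lay far from the other 5 RG7112 arrays in 4 members. GARS1 had 9.85 there, against 10.57 to 10.92 on the other RG7112 arrays, and WARS1 had 10.10 there. KARS1 had 11.34 on that array, which is higher than on any other array, and the mitochondrial PARS2 (proline) had 6.07, which is lower than on any other. WARS1, GARS1 and PARS2 were thus low on that array and KARS1 was high. Without it, the RG7112 difference of GARS1 was -0.23 (limma adjusted p = 0.0868), against -0.38 with all arrays (limma adjusted p = 0.0581). WARS1 had -0.12 without it and -0.28 with all arrays, KARS1 had -0.18 and -0.05, and PARS2 had -0.06 and -0.25. None of these passed in either fit. The count of cytosolic members that fell with RG7112 was 6 without this array as well. GARS1 passed when replicate 2 of RG7112 was left out (adjusted p = 0.0282), and likewise for replicate 4 of RG7112 (0.0419) and replicate 1 of DMSO (0.0494).

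**Figure D3:**
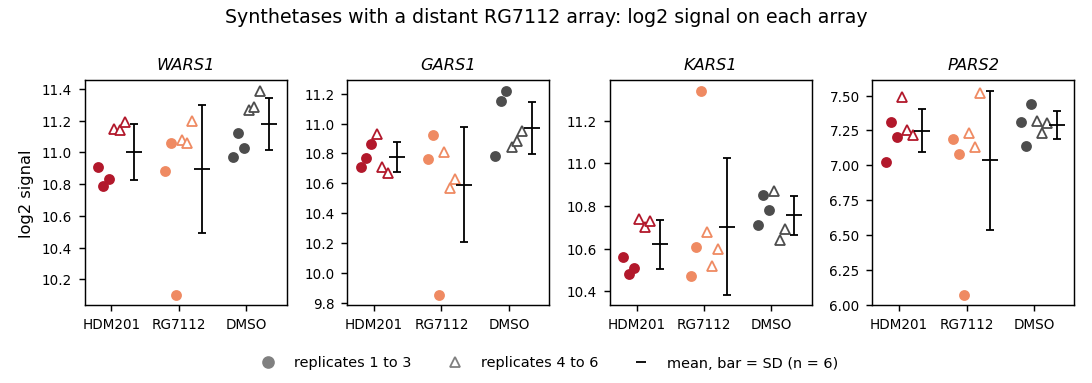
Log2 signal on each array for WARS1, GARS1, KARS1 and PARS2, in the order HDM201, RG7112, DMSO, with symbols and bars as in the plot of the members that passed. A single RG7112 array, replicate 3, is the lowest for WARS1, GARS1 and PARS2 and the highest for KARS1.

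NARS2, the mitochondrial asparaginyl-tRNA synthetase, was the mitochondrial member with the largest difference. It had lowest, median and highest signals of 6.58, 7.16 and 7.39 in HDM201 arrays and 6.50, 7.23 and 7.36 in RG7112 arrays, against 7.48, 7.74 and 7.85 in DMSO arrays. All treated arrays lay below all DMSO arrays. NARS2 fell, with a difference of -0.62 ± 0.15 with HDM201, 1.53-fold lower (limma adjusted p = 0.00454), and of -0.65 ± 0.15 with RG7112, 1.57-fold lower (limma adjusted p = 0.00364). Its call held without each of the 18 arrays in turn. Within replicates 4 to 6 the differences were -0.45 with HDM201 (limma adjusted p = 0.0986) and -0.51 with RG7112 (limma adjusted p = 0.0614), which did not pass with 3 arrays per group.

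AARS2, the mitochondrial alanyl-tRNA synthetase, passed with RG7112 only by a narrow margin. It ranged from 5.87 to 6.40 in HDM201 arrays (median 6.12), from 5.82 to 6.25 in RG7112 arrays (median 6.13) and from 6.16 to 6.67 in DMSO arrays (median 6.34). The ranges overlapped. The difference was -0.29 ± 0.11 with HDM201, which did not pass (limma adjusted p = 0.0698), and -0.31 ± 0.11 with RG7112, which passed (limma adjusted p = 0.0498). The RG7112 call held in 6 of 18 fits that left out an array (adjusted p from 0.0322 to 0.125). It was lost without DMSO replicate 1, 2, 3, 5 or 6, without RG7112 replicate 3, 5 or 6, or without HDM201 replicate 1, 3, 5 or 6. It was also lost with the robust prior (adjusted p = 0.0632), with only the 12 arrays compared (0.0646) and with the replicate block (0.0515), and held under 6 of 9 other settings in all. With HDM201 it passed without DMSO replicate 4 (adjusted p = 0.0416) or HDM201 replicate 4 (adjusted p = 0.0281), and under 1 of the 9 other settings (adjusted p = 0.0318).

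The remaining 13 mitochondrial members did not pass with either compound. They were the enzymes for cysteine (CARS2), glutamate (EARS2), phenylalanine (FARS2), histidine (HARS2), isoleucine (IARS2), leucine (LARS2), methionine (MARS2), proline (PARS2), arginine (RARS2), serine (SARS2), valine (VARS2), tryptophan (WARS2) and tyrosine (YARS2). Among them YARS2 had the lowest difference with both compounds, at -0.22 with HDM201 (limma adjusted p = 0.379) and -0.30 with RG7112 (limma adjusted p = 0.197). HARS2 had the highest with HDM201, at 0.18 (limma adjusted p = 0.218), and SARS2 the highest with RG7112, at 0.13 (limma adjusted p = 0.253).

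For 10 amino acids a cytosolic and a mitochondrial gene whose symbols differ only in the final digit were measured, and these were paired. Both compartments were also measured for phenylalanine (FARSA and FARSB, with FARS2), glutamate (EPRS1 and EARS2) and proline (EPRS1 and PARS2). Those genes are not among the pairs counted here. In 8 of these 10 pairs the cytosolic difference from DMSO was the lower of the pair, with HDM201 and with RG7112. The exceptions were asparagine, where NARS2 fell and NARS1 had -0.10 with HDM201 and -0.14 with RG7112, and serine, where SARS1 rose and SARS2 had 0.07 and 0.13. In the alanine pair AARS1 fell with both compounds, and AARS2 fell with RG7112. In the cysteine, isoleucine and tyrosine pairs the cytosolic enzyme fell with both compounds and the mitochondrial enzyme did not pass. Differences within a pair were not tested, and the levels of different probes were not compared.

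HDM201 at 500 nM and RG7112 at 2 µM were given at different doses, so their values stand side by side and the contrast describes these doses only. For HDM201 minus RG7112, 0 of 31 synthetases passed in limma (lowest adjusted p = 0.991), 0 passed at an unadjusted p under 0.05, and 0 passed with a robust prior. Over all 21448 probes 0 passed after adjustment, which is 0%, and 749 had an unadjusted p under 0.05. With the replicate number as a block the counts that passed after adjustment were again 0 of 31 members (lowest adjusted p = 0.888) and 0 probes. The members' differences lay between -0.14 (FARS2) and 0.21 (PARS2). Their 95% intervals lay within -0.33 to 0.54, so differences of that size between the compounds are not excluded. For AARS1 the interval was -0.23 to 0.15 and for SARS1 -0.15 to 0.21.

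The differences were also taken within each replicate set, 3 arrays against 3. With HDM201, 14 of 16 cytosolic members lay below 0 in both sets, and with RG7112 13 of 16. SARS1 lay above 0 in both sets with both compounds. AARS1 fell in each set with each compound: the difference was -1.01 in replicates 1 to 3 and -0.65 in replicates 4 to 6 with HDM201, and -0.89 and -0.68 with RG7112. The cytosolic median was -0.32 in replicates 1 to 3 and -0.13 in replicates 4 to 6 with HDM201, and -0.29 and -0.21 with RG7112. The mitochondrial median was -0.12 and 0.02 with HDM201, and -0.22 and -0.03 with RG7112. Over all probes these medians were 0.03 and 0.01 with HDM201, and 0.03 and 0.02 with RG7112. Within replicates 1 to 3, 8 cytosolic members fell and 1 rose with HDM201, where 8.89% of all probes were lower and 7.58% higher, and 5 fell and 1 rose with RG7112, where 8.64% were lower and 6.84% higher. Within replicates 4 to 6, 1 fell (AARS1) and 1 rose (SARS1) with HDM201, where 4.46% of all probes were lower and 4.34% higher. With RG7112 2 fell there (AARS1 and EPRS1) and 0 rose in limma, where 3.87% of all probes were lower and 3.33% higher.

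The cytosolic difference was the lower in replicates 1 to 3 for 15 of 16 members with HDM201 and 12 of 16 with RG7112, and the mitochondrial difference for 14 of 15 and 11 of 15. The members of a set share their arrays, so these counts are not independent. A test of the difference between the sets passed for 0 of 31 members with either compound in limma (lowest adjusted p 0.813 with HDM201 and 0.837 with RG7112). Over all probes 0.149% passed this test with HDM201 and 0.0373% with RG7112. At an unadjusted p under 0.05 there was 1 member with HDM201, AARS2, at -0.42 (95% interval -0.85 to -0.00033), and 0 with RG7112, and with a robust prior 0 passed for either. In DMSO arrays alone 0 of 31 members passed a test between the sets in limma, and 0 did so at an unadjusted p under 0.05, against 0.303% of all probes that passed after adjustment.

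**Figure D4:**
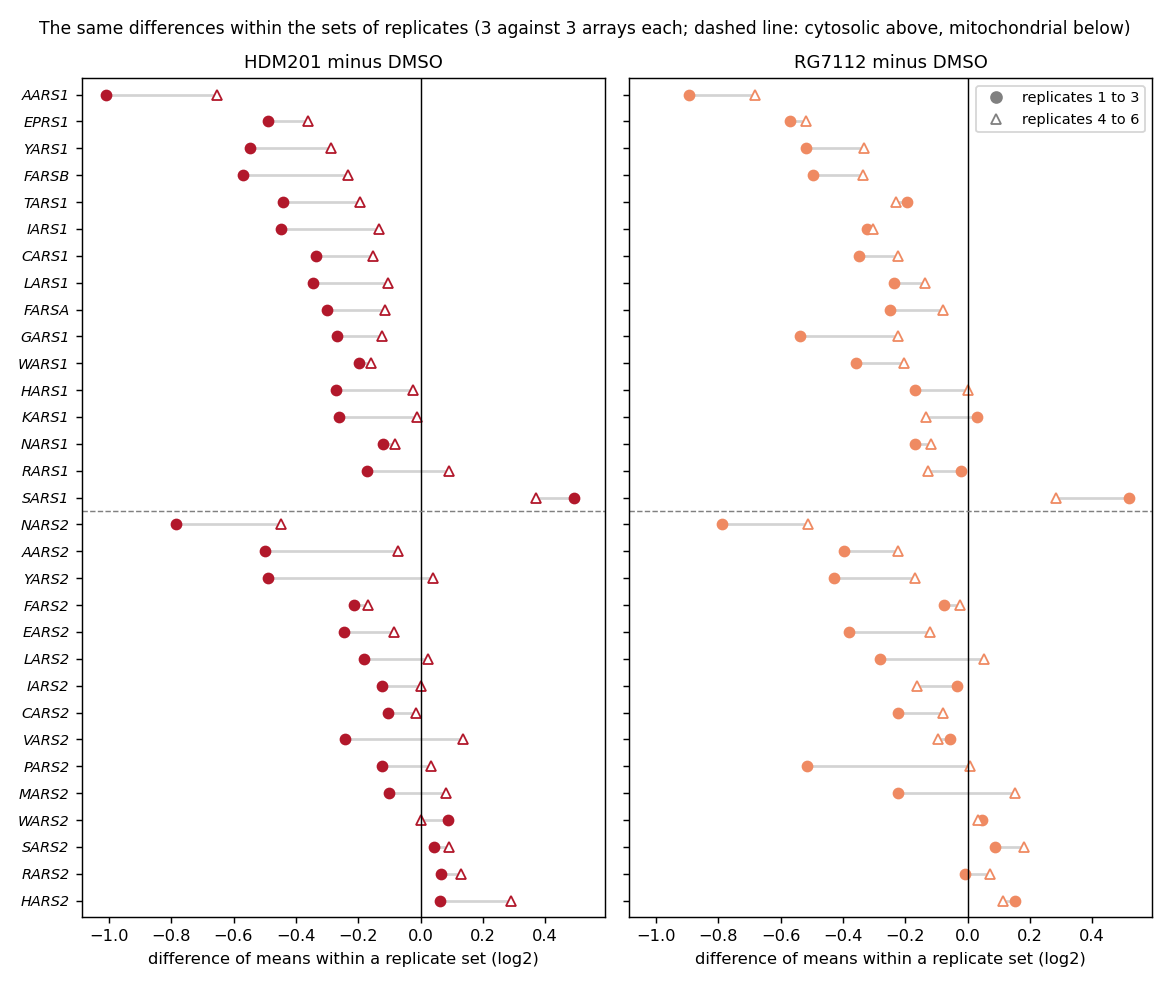
Differences of the 31 synthetases from DMSO on the log2 scale within replicates 1 to 3 (filled circles) and within replicates 4 to 6 (open triangles), HDM201 on the left and RG7112 on the right, 3 arrays per group in each set. AARS1 lies at -1.01 and -0.65 with HDM201 and at -0.89 and -0.68 with RG7112, and SARS1 lies to the right of 0 in both sets.

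Of the cytosolic synthetases, 11 measured members belong to a list of genes known to be induced through ATF4. In that list 6 fell and 1 rose with HDM201, with a median difference of -0.24, and 5 fell and 1 rose with RG7112, with a median of -0.29. The share that fell was 54.5% with HDM201 and 45.5% with RG7112, against 9.64% and 9.61% of all probes. Among probes as bright as the cytosolic members it was 17.1% and 18%. Of the other 5 cytosolic members (FARSA, FARSB, HARS1, KARS1 and RARS1), FARSB fell with both compounds, and the medians were -0.15 and -0.08. Set against the promoter windows, the TGATGNAA core was present in 4 of the 6 cytosolic genes with a window that fell with either compound and in 2 of the 8 that did not fall. EPRS1 and FARSB fell and had no match in their windows.

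Other genes of the integrated stress response did not move in a single direction. Of 36 measured, 9 rose and 15 fell with HDM201 (median -0.24), and 10 rose and 15 fell with RG7112 (median -0.29). The share that fell was 41.7% with each compound, against 9.64% of all probes with HDM201 and 9.61% with RG7112. The share that rose was 25% and 27.8%, against 9.16% and 7.9% of all probes. The list was not matched on signal. ATF4 itself fell, with differences of -0.40 ± 0.08 with HDM201 and -0.45 ± 0.08 with RG7112 (limma adjusted p = 0.00112 and 0.000517). ASNS, asparagine synthetase, which makes the amino acid that NARS1 and NARS2 load, fell, at -0.99 ± 0.19 with HDM201 and -1.11 ± 0.19 with RG7112. PHGDH, the entry enzyme of serine synthesis, fell too, at -2.61 ± 0.27 with HDM201 and -2.39 ± 0.27 with RG7112. In the other direction, SLC7A11, a cystine transporter, rose by 2.74 ± 0.19 with HDM201 and by 2.80 ± 0.19 with RG7112. SESN2, a leucine sensor that is also a p53 target, rose by 1.74 ± 0.15 and by 1.53 ± 0.15. DDIT3, the stress factor CHOP, rose with HDM201, by 0.71 ± 0.22 (limma adjusted p = 0.0275), and had 0.52 ± 0.22 with RG7112 (limma adjusted p = 0.114).

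Genes that make and mature tRNA were followed as the supply side of the synthetases. Of 21 measured genes of RNA polymerase III, which transcribes tRNA genes, and its factors, 6 fell and 1 rose with HDM201, and 5 fell and 1 rose with RG7112. Their median difference was -0.11 with HDM201 and -0.19 with RG7112. POLR3G and POLR3GL encode alternative forms of the same polymerase subunit. POLR3G averaged 5.93 ± 0.29 in HDM201 arrays, 5.72 ± 0.74 in RG7112 arrays and 7.13 ± 0.26 in DMSO arrays (SD, n = 6 each), and it fell with both compounds. POLR3GL averaged 8.32 ± 0.23 in HDM201 arrays, 8.10 ± 0.24 in RG7112 arrays and 7.56 ± 0.15 in DMSO arrays, and it rose with both. Of 50 genes of tRNA export, processing and modification, 13 fell and 2 rose with HDM201, and 10 fell and 40 did not pass with RG7112, with medians of -0.19 and -0.18. The share that fell was 28.6% and 23.8% of the RNA polymerase III list and 26% and 20% of the tRNA export list with HDM201 and RG7112, against 9.64% and 9.61% of all probes. The share that rose was at most 4.76% of either list, against 9.16% and 7.9% of all probes. Brighter probes fell more often than all probes, as given above, and the lists were not matched on signal. XPOT, the exporter of tRNA from the nucleus, fell by 0.53 ± 0.11 with HDM201 (limma adjusted p = 0.00127) and had -0.30 ± 0.11 with RG7112 (limma adjusted p = 0.0641). POP7, a subunit of RNase P, fell, at -0.76 ± 0.14 with HDM201 and -0.66 ± 0.14 with RG7112. PUS7, a pseudouridine synthase, fell, at -0.71 ± 0.17 with HDM201 and -0.68 ± 0.17 with RG7112.

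The steps that use loaded tRNA were covered by shorter lists. Of 9 cytosolic elongation and termination factors, 3 fell and 6 did not pass with each compound, with medians of -0.14 and -0.17. The share that fell was 33.3%, against 9.64% of all probes with HDM201 and 9.61% with RG7112. This short list was not matched on signal either, and brighter probes fell more often than all probes. GSPT1, a release factor, had -0.33 ± 0.10 with HDM201 and -0.35 ± 0.10 with RG7112 and fell with both, and so did EIF5A2 at -0.42 ± 0.15 and -0.55 ± 0.15. A list of 26 measured genes covered mitochondrial translation, mitochondrial tRNA maturation and mitochondrial transcription. Of these 26, 2 fell and 3 rose with HDM201, and 2 fell and 2 rose with RG7112, with medians of -0.12 and -0.10. The share of these that fell was 7.69% with each compound, against 9.64% of all probes with HDM201 and 9.61% with RG7112. The share that rose was 11.5% with HDM201 and 7.69% with RG7112, against 9.16% and 7.9% of all probes. These shares lay near those over all probes. MTO1, which modifies mitochondrial tRNAs, rose by 0.56 ± 0.11 with HDM201 and by 0.51 ± 0.11 with RG7112. MTRF1L, a mitochondrial release factor, rose by 0.44 ± 0.10 and by 0.29 ± 0.10. In the other direction, TRMT10C, a tRNA methyltransferase of mitochondria, fell by 0.54 ± 0.14 with RG7112 (limma adjusted p = 0.0114). With HDM201 TRMT10C had -0.37 ± 0.14 (limma adjusted p = 0.0765), which did not pass. Of 5 genes of aminoacyl-tRNA editing and ribosome quality control, 0 passed with either compound in limma. At an unadjusted p under 0.05, 2 were lower with HDM201 and 1 with RG7112. Of 3 further measured genes of the synthetase family (TARS3, SEPSECS and PSTK), 0 passed with either compound, and 0 had an unadjusted p under 0.05.

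**Figure D5:**
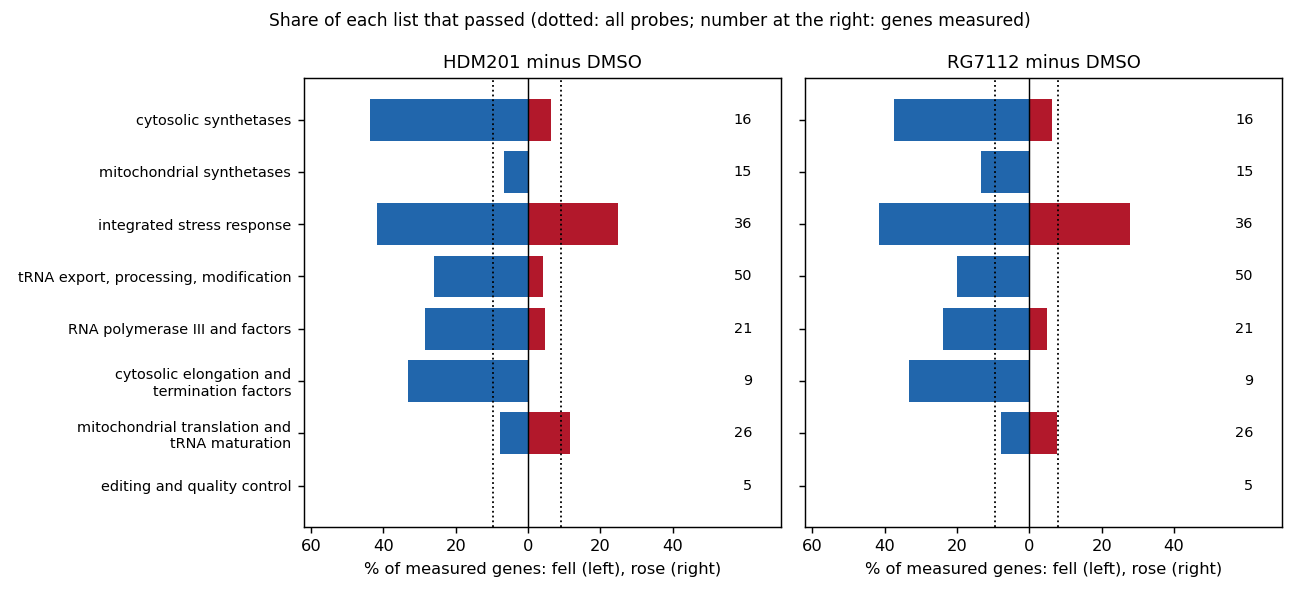
Share of the measured genes of each list, in percent, that fell (left of 0, blue) or rose (right of 0, red), with HDM201 on the left and RG7112 on the right; dotted lines give the same shares over all probes, and the number at the right is the count of genes measured. The cytosolic synthetases, with 7 of 16 and 6 of 16 that fell, reach past the dotted line for genes that fell. So do the integrated stress response, tRNA export, RNA polymerase III and elongation lists with both compounds. The mitochondrial synthetases pass that line with RG7112, at 13.3%, but not the 15.7% of probes as bright as these members. For genes that rose, the integrated stress response passes the line with both compounds. The mitochondrial translation list lies near that line, at 11.5% with HDM201 (3 of 26 genes) against 9.16% of all probes.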

How the data were processed

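Total RNA of OCI-AML3 cells was labelled with biotin and measured on 18 arrays, per the labels. Values deposited by the authors are on the log2 scale and came from oligo and its RMA method, per the submitters' processing notes. RMA subtracts background, makes the arrays share a distribution and merges the probes of a gene, so a value is relative to its array. Tool versions and the genome build of the probes, not given in the sources used here, are left out. A probe was named where the reference table gave it exactly 1 symbol, which held for 17709 of 21448 probes, and 3739 had none.

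A linear model per probe, with the 3 group means of all 18 arrays, was fitted by limma 3.58.1 (R 4.3.3, empirical Bayes at its defaults), and the Benjamini-Hochberg adjustment ran over all 21448 probes. Another fit held a mean per group and replicate set (replicates 1 to 3 and 4 to 6), and its contrasts gave the values within a set and their difference. Same-numbered HDM201 and RG7112 arrays deviated together in 6 of 6 pairs (correlations from 0.12 to 0.44, 4 of 6 best with their own number). From the data, not the labels, the numbers were taken to pair these groups, and the blocked values are given beside that contrast. Arrays of each compound and of DMSO did so in 5 of 6 pairs, with 5 of 6 best with their own number. The main comparisons with DMSO still held no block, and the block was fitted there as an alternative. Samples were grouped by their labels, and no array was left out of the reported values. The scripts were tested on simulated data. Members, lists, tests and the rule for naming genes were chosen with earlier results of these data known. Values per group are given for members that passed against DMSO and were among the 8 largest differences of their compartment. From each other list up to 3 members that passed are named, with ATF4, DDIT3, ASNS, XPOT and AIMP1. The alternatives were another prior, array weights, filters on dim probes, probes with 1 symbol, other scalings, only the 12 arrays compared, blocks, each replicate set, each array left out, the mean of a symbol's probes, an adjusted p under 0.01, and the count without GARS1 and KARS1. Promoter windows came from RefSeq, build GRCh38.p14. Figures were drawn with Python 3.11.15 and matplotlib 3.10.9.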

Additional observations from a re-analysis of the deposited data

Results flagged for a closer look

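In 8 of the 93 combinations of a synthetase and a group of 6 arrays, a single array lay far from the other 5 by Dixon's criterion, which chance meets in about 1 of 20 such groups. RG7112 replicate 3 gave 4 of the 8, at 10.1 for WARS1, 9.85 for GARS1, 11.34 for KARS1 and 6.07 for PARS2, and the values without it stand beside those members. The others were MARS2 in HDM201 replicate 4, at 7.81, and 3 DMSO values: CARS1 in replicate 4 at 8.49, IARS2 in replicate 1 at 10.15 and MARS2 in replicate 5 at 7.2. CARS1 is the only one of these 7 genes that passed in a comparison with DMSO, and its calls with both compounds held without DMSO replicate 4.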

How the results depend on the processing

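The falls of AARS1, EPRS1, YARS1, FARSB, CARS1 and NARS2 and the rise of SARS1 held with both compounds, and that of TARS1 with HDM201, without each of the 18 arrays in turn and under the 10 other settings of prior, weights, filter, scaling, block or arrays fitted. IARS1 passed under 8 of these 10 with HDM201 and 9 with RG7112. Of members that did not pass, TARS1 with RG7112 and LARS1 with HDM201 passed under 7 each, GARS1 with RG7112 under 5 and FARSA with HDM201 under 1, array weights. AARS2 with HDM201 passed under 1 of its 9 settings (limma adjusted p = 0.0318). Within replicates 4 to 6, with 3 arrays per group, 1 cytosolic member fell with HDM201 and 2 with RG7112, 0 cytosolic members rose with RG7112, and 0 mitochondrial members fell with either compound. Within replicates 1 to 3, 2 mitochondrial members fell with HDM201 and 1 with RG7112. At an adjusted p under 0.01, 4 cytosolic members fell with HDM201 and 1 mitochondrial member with RG7112. The RG7112 falls of FARSB (limma adjusted p = 0.0135) and IARS1 (limma adjusted p = 0.0363) were also lost at that threshold. The mitochondrial count that fell with HDM201 was 2 with array weights and lay between 1 and 2 over the fits that left out an array. With RG7112 it lay between 1 and 2 over such fits and was 1 with the robust prior, 1 without probes below the median signal (a filter that removes AARS2), 1 with only the 12 arrays compared and 1 with the replicate block; the cause of these moves was not tested.

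Same-numbered arrays of different groups deviated together at a correlation over 0.1 in 5 of 6 pairs with DMSO for each compound, and 5 of 6 arrays in each of these comparisons correlated best with their own number, a hint from the data and not the design. For HDM201 against RG7112 these counts were 6 of 6 and 4 of 6. The main fits held no block, so a pairing of compound and DMSO samples, if present, was not used there. With the replicate block, fitted as an alternative, the mitochondrial RG7112 count moved.

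Some members that did not pass changed sign in some settings, YARS2 with HDM201 among them at -0.22 over all arrays. Within replicates 4 to 6 with HDM201 the values were 0.0018 for IARS2, 0.023 for LARS2, 0.082 for MARS2, 0.032 for PARS2, 0.092 for RARS1, 0.14 for VARS2 and 0.040 for YARS2. With RG7112 there they were 0.00036 for HARS1, 0.052 for LARS2, 0.15 for MARS2 and 0.0080 for PARS2. Within replicates 1 to 3 with RG7112 KARS1 had 0.029 and RARS2 had -0.0081. With RG7112 KARS1 had 0.014 after a further quantile normalization, MARS2 had 0.023 with array weights, and RARS2 and WARS2 had -0.021 and -0.012 with each array's median subtracted. Leaving out an array moved HDM201 differences between -0.11 and 0.020 for CARS2, -0.078 and 0.021 for MARS2, -0.094 and 0.00093 for PARS2 and -0.11 and 0.013 for RARS1. It moved RG7112 differences between -0.10 and 0.036 for MARS2, -0.0080 and 0.098 for RARS2 and -0.0018 and 0.11 for WARS2.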

Other observations

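The mean log2 signal of the 16 cytosolic members on an array lay between 9.86 and 10.11 in HDM201 arrays (median 9.92), between 9.79 and 10.04 in RG7112 arrays (median 9.92) and between 10.05 and 10.28 in DMSO arrays (median 10.19). The RG7112 arrays lay below the DMSO arrays, and the HDM201 range overlapped the DMSO range. For the 15 mitochondrial members the mean lay between 7.64 and 7.92 in HDM201 arrays, between 7.48 and 7.84 in RG7112 arrays and between 7.76 and 7.91 in DMSO arrays, and all groups overlapped. These means are a description of the members measured.

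The E-box CACGTG, a motif bound by MYC and related factors, was searched in the same promoter windows. It was present in 1 of 14 cytosolic genes (IARS1) and in 3 of 13 mitochondrial genes (CARS2, EARS2 and MARS2). Counted by window, it was in 5.26% of cytosolic and 23.5% of mitochondrial windows, against 7.26% of all windows. IARS1 was the 1 gene of 27 with both motifs, and its matches did not overlap.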
